A study of Mus musculus with 9 samples.

Results

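The regions described here are places in the mouse genome where the authors called a Stat5a peak after 2 rounds of Th2 differentiation, and where none of the other 5 deposited peak lists of the study had a peak. They were found by joining the 6 lists (each factor at each of 3 stages) wherever peaks overlapped by 1 bp or more, with the mitochondrial genome left out. Of 43766 merged regions, 1150 overlapped a 2-round Stat5a peak and no other. The members were thus chosen by the authors' peak calls, which rest on the reads of the Stat5a and Stat5b libraries. They are called Stat5a-alone regions below, a name for the pattern of peak calls and not for the factors that sat there. Another 3210 regions had 2-round peaks of both factors and no earlier peak, and 16634 had a 2-round Stat5b peak alone.

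Chromatin immunoprecipitation and sequencing (ChIP-seq) was done on mouse CD4+ T cells with an antibody to Stat5a, an antibody to Stat5b or control IgG, sampled 8 h, 13 h or 2 rounds into differentiation toward the Th2 state. That gives 9 groups with 1 library each. The sources used here do not give strain, genotype, age, the number of animals or the culture conditions, and ChIP reads do not allow the labelled cell type to be checked against marker genes. With 1 library per group, each comparison compares 2 libraries and no p-value is given. The libraries held between 3130228 (Stat5a at 8 h) and 9036070 (Stat5b at 13 h) mapped reads, with 6645271 for Stat5a, 7656900 for Stat5b and 5787254 for IgG after 2 rounds. The unit of level is RPM: a region's reads divided by the library's mapped reads, times 1000000. Ranges in brackets after a ratio are 95% intervals that cover counting error only. Spread between samples is not covered, as each group has 1 library. The intervals treat reads as independent. Copies of 1 molecule cannot be recognised without molecular identifiers, and such copies would make the intervals too narrow.

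Stat5a and Stat5b are closely related transcription factors encoded by neighbouring genes. Cytokine receptors such as the IL-2 receptor activate Janus kinases, which phosphorylate STAT5. The phosphorylated proteins pair, enter the nucleus and bind short palindromic DNA sites called GAS elements. In CD4+ T cells, IL-2 acting through STAT5 favours the Th2 fate, in which cells make IL-4, IL-5 and IL-13. Because the partners bind the same kind of site and can pair with each other, sites that carry one factor are commonly found to carry the other.

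Regions are named by position in the mm8 build, the build of the files. No mm8 gene annotation or genome sequence was used here, so neither genes nor binding motifs are given for them.

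The Stat5a-alone regions were narrow and of low level within the Stat5a list. Their median width was 266.5 bp (range 117 to 642 bp), and 908 of them (79.0%) were between 200 and 350 bp wide. Only 5 were formed of 2 joined peaks. Measured within the Stat5a peak itself, they held a median of 12 Stat5a reads after 2 rounds, against 18 in peaks shared with Stat5b after 2 rounds only and 27 in peaks that also met a peak of another stage. Of the 1150, 66.3% were at or below the 25th percentile of reads over all 9556 joined Stat5a peaks, ties included. The top 25% held 5 of them. Per kb of peak the gap was smaller, with medians of 6.97, 8.34 and 10.4 RPM per kb for the 3 kinds in the same order. Stat5a reads of the 2-round library chose these regions, so these levels describe the choice and are not a test.

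After 2 rounds the Stat5a-alone regions together held 2313 RPM of Stat5a (15371 reads), 827 RPM of Stat5b (6336 reads) and 267 RPM of IgG (1548 reads). The median region had 1.81 RPM of Stat5a, 0.653 of Stat5b and 0.173 of IgG, and over all 43766 merged regions the medians were 1.20, 2.87 and 0.346. Stat5a stood 8.65 times above IgG over the regions as a whole (8.21 to 9.12). For single regions, higher means a 95% interval of the ratio above 2 over its whole length, and lower means one below 0.5. By that rule 422 of 1150 (36.7%) were higher for Stat5a than for IgG, against 13.9% of all merged regions. On distinct starts (a position and strand counted 1 time however many reads it has) the number was 38, the median region then holding 7 Stat5a starts. No share of all merged regions is given for calls on distinct starts, here or below. The shares printed rest on all reads and are not a background for those calls. On all reads, the interval lay wholly above 1 in 968 regions (84.2%), against 32.7% of all merged regions. The peak choice favours each of these counts.

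Stat5b was present above IgG in the Stat5a-alone regions although none had a Stat5b peak. Summed over the regions, the ratio of Stat5b to IgG after 2 rounds was 3.09 (2.93 to 3.27), and 3.34 (3.12 to 3.59) on distinct starts. In regions with peaks of both factors the same ratio was 11.2 (11.0 to 11.4). Stat5b had more RPM than IgG in 878 of the 1150 regions and less in 177. Over all 43766 merged regions the summed ratio was 4.36, with more Stat5b than IgG in 38407 and less in 2922. Stat5b had an interval wholly above 1 in 214 (18.6%), against 71.5% of all merged regions. Under the stricter limits, 26 (2.26%) were higher for Stat5b than for IgG and 1 was lower, against 46.5% and 0.151% of all merged regions. On distinct starts 3 were higher and 0 lower. No Stat5b read fell in 157 regions (13.7%), where the count of 0 allows up to 0.392 RPM per region (3 counts).

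**Figure D1:**
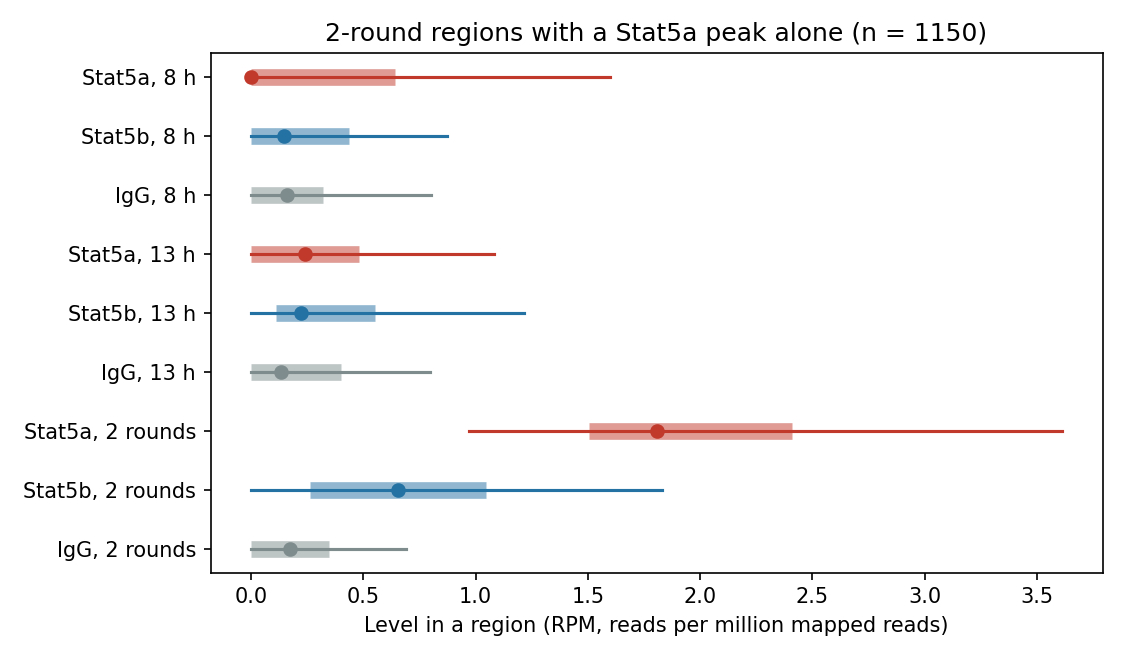
Level of each of the 1150 Stat5a-alone regions in the 9 libraries, in RPM on a linear axis. Points are medians, thick bars run from the 25th to the 75th percentile and thin lines from the 5th to the 95th; Stat5a after 2 rounds has the highest median, 1.81 RPM, followed by Stat5b after 2 rounds at 0.653 RPM, while the other 7 medians lie at or below 0.241 RPM.

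Relative to Stat5a, Stat5b was at 0.358 times its level over the Stat5a-alone regions (0.347 to 0.368). In regions with both 2-round peaks Stat5b stood at 1.62 times Stat5a (1.61 to 1.63), and over all merged regions at 2.16 times. Lower Stat5b than Stat5a was called in 174 regions (15.1%), while 0.487% of all merged regions, 213 in number, were called so. On distinct starts 11 of the Stat5a-alone regions were called. The interval lay wholly below 1 in 611 (53.1%), against 2.43% of all. The absence of a Stat5b peak was part of the choice, so this direction was favoured. In 35 of the 1150 regions Stat5b RPM was nevertheless above Stat5a RPM, against 35351 of all 43766 merged regions.

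Windows of equal width removed the difference in region size. In 500 bp around the centre of the Stat5a peak, the Stat5a-alone regions had a median of 14 Stat5a, 8 Stat5b and 2 IgG reads, and regions with both peaks had 20, 31 and 2. The Stat5b counts of the 2 kinds overlapped. The 5th percentile in windows with both peaks was 14 Stat5b reads, and 172 Stat5a-alone windows reached it. None reached the median of the windows with both peaks, the highest holding 28 reads. Local background, taken between 2 and 4 kb on either side of the centre, was 0.760 RPM per kb for Stat5a, 0.974 for Stat5b and 0.546 for IgG. The window stood 5.81 times above it for Stat5a (5.69 to 5.92), 2.10 times for Stat5b (2.05 to 2.15) and 1.29 times for IgG (1.24 to 1.35). With both peaks, the same ratios were 8.13 for Stat5a, 9.43 for Stat5b and 1.46 for IgG. Stat5b was raised over its own surroundings in the Stat5a-alone regions, by less than in the shared regions and by more than IgG. The kinds were separated by the 2-round Stat5b peak, so the lower Stat5b than in shared regions was favoured by the choice.

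**Figure D2:**
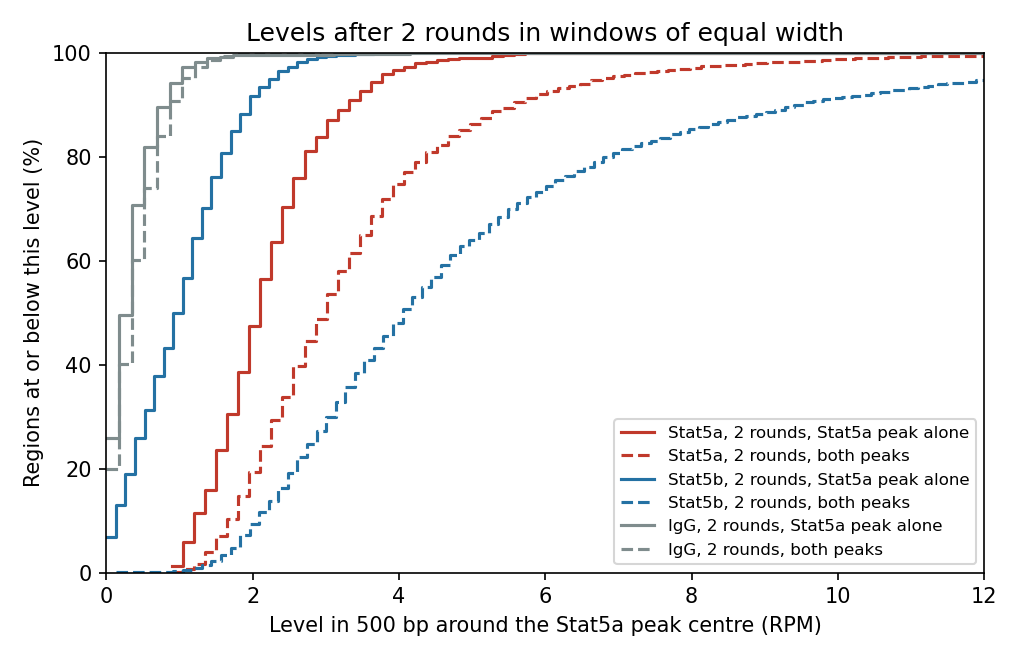
Cumulative share of windows (%) at or below a given level after 2 rounds, in RPM within 500 bp around the Stat5a peak centre, for 1150 Stat5a-alone regions (solid) and 3308 Stat5a peaks of regions with both peaks (dashed); the axis ends at 12 RPM. The solid Stat5b curve lies between IgG and Stat5a, with a median of 1.04 RPM against 4.05 RPM in the windows with both peaks.

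The Stat5a starts of the strands were set apart from each other in the Stat5a-alone regions, a feature that the rule did not use directly. Fragments around a bound site give plus-strand starts upstream and minus-strand starts downstream of it. Over the Stat5a-alone regions, the median of the distinct plus-strand Stat5a starts within 500 bp of the centre lay 49 bp upstream and that of the minus-strand starts 45 bp downstream, an offset of 94 bp. In Stat5a peaks with both factors it was 100 bp. Stat5b, without a peak in these regions, had an offset of 68 bp there (117 bp with both peaks), and IgG had 24 bp (33 bp). At earlier stages the Stat5a-alone regions gave Stat5a offsets of 27 bp at 8 h and 56 bp at 13 h, Stat5b offsets of 43.5 and 60 bp, and IgG offsets of 35 and 43 bp. The 8 h offsets of the ChIP libraries therefore fell on either side of IgG. Whether the authors' peak caller used strand is not stated.

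**Figure D3:**
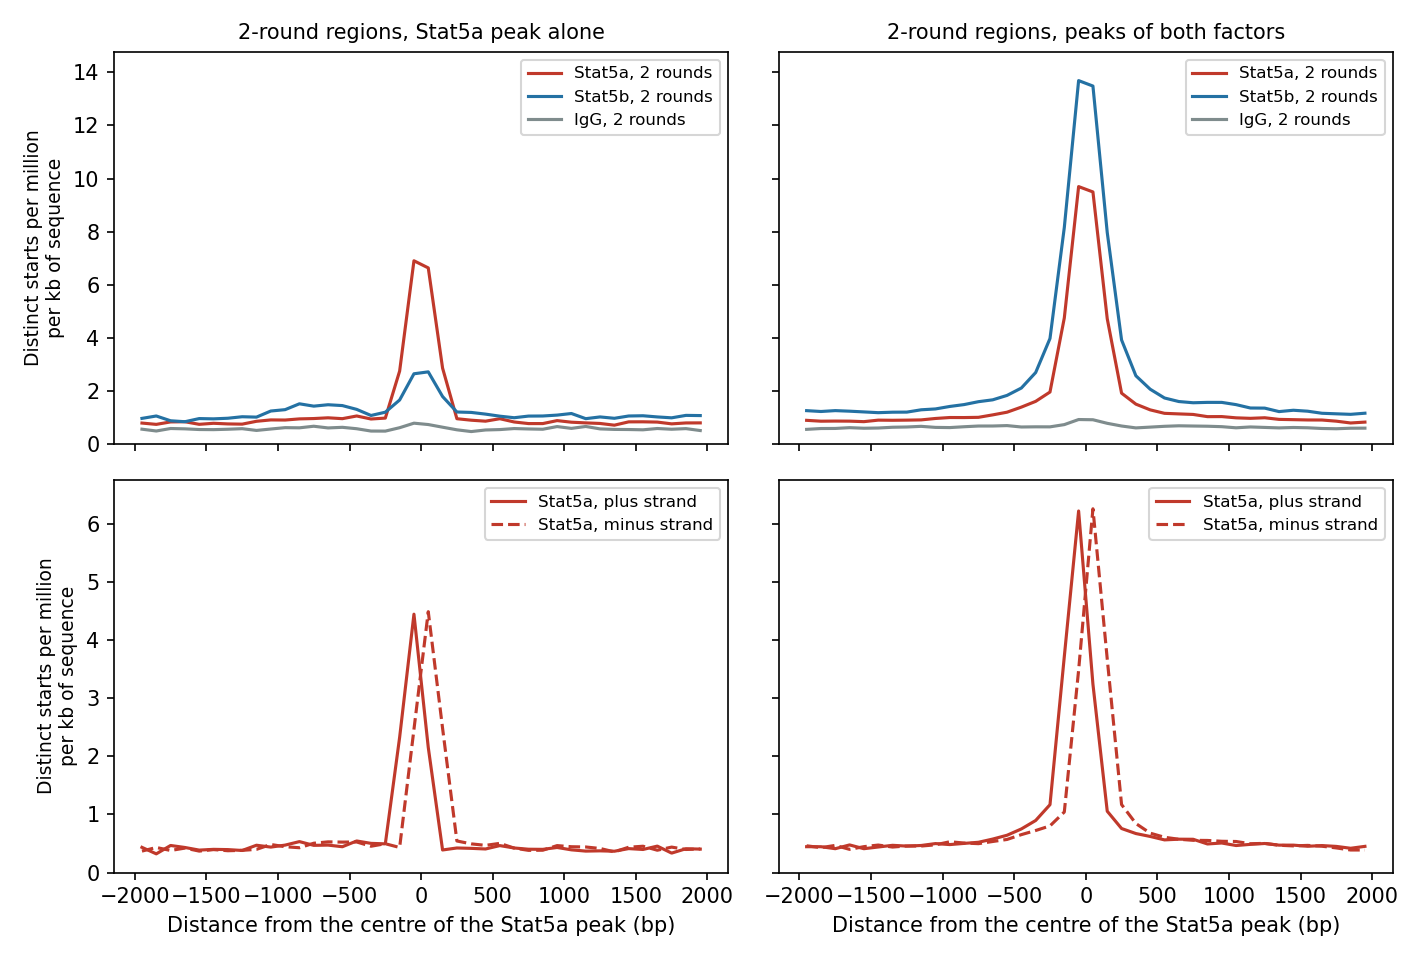
Distinct starts per kb and per 1000000 distinct starts of the library, in bins of 100 bp within 2 kb of the Stat5a peak centre. Stat5a-alone regions are on the left and regions with both peaks on the right. The upper row sums the strands for the 3 libraries of the 2-round stage, and the lower row splits Stat5a by strand. In Stat5a-alone regions Stat5a reaches 6.91, Stat5b 2.73 and IgG 0.799 in these units, and the plus and minus strands peak 50 bp before and 50 bp after the centre.

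Single regions were too shallow for a firm offset. Only 80 of 1150 (6.96%) had 5 or more distinct Stat5a starts on each strand. Among these the median offset was 84.5 bp (quartiles 36 and 129 bp), and minus-strand starts lay downstream in 70. Starts on both strands were seen in 1109 regions, while 30 had no plus-strand start and 11 no minus-strand start. Repeated starts were common, as distinct starts made up 55.2% of Stat5a reads in the regions against 61.0% in the library. The most used start held a median of 28.3% of a region's Stat5a reads. In 15 regions 1 start held more than 50% of them, and 3 regions were heaped, which means 20 or more reads in some library with over 50% of them at a single position of 1 strand.

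Reads of 24 and 25 bp were mixed in the Stat5a and IgG libraries of the 2-round stage. The Stat5b libraries of every stage and all 8 h libraries held no 24 bp reads. Ratios between those libraries and Stat5a or IgG after 2 rounds therefore compare unlike mixes of read length. The labels do not say what separates the lengths. In the Stat5a-alone regions 48.9% of Stat5a reads were 24 bp long (48.1 to 49.7, Wilson 95% interval), against 54.5% of the library. For IgG the share was 82.8% (80.8 to 84.6) against 77.3% of the library. Regions with both peaks had 56.6% and 77.2%, and regions with a 2-round Stat5b peak alone 47.8% and 70.7%. Both lengths were found in 1053 of the 1150 regions (91.6%). The regions held 2077 RPM of Stat5a when 24 bp reads alone were counted against their own total and 2596 RPM with 25 bp reads alone. Per region, the exact 95% interval of the 24 bp share lay wholly above the library share in 116 (10.1%) and wholly below it in 201 (17.5%), against 7.22% and 12.9% of all merged regions. Its part in the peak calls was not tested.

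Stat5a reads in the regions were also more often of class U0 in the deposited lists. ELAND, an aligner of that time, uses this code for a unique match without mismatches, but the aligner used is not stated. The share was 60.2% (59.4 to 61.0) for Stat5a against 54.8% of its library, and 65.3% (64.2 to 66.5) for Stat5b against 62.1%. For IgG it was 55.1% (52.6 to 57.6) against 57.4%. In regions with both peaks the shares were 63.1%, 67.4% and 64.0%.

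At the earlier stages, the Stat5a-alone regions had less signal of either factor than of Stat5a after 2 rounds. The rule left out every region with a peak at 8 h or 13 h, so low levels and few calls at these stages were favoured. Summed over the regions, Stat5a stood at 495 RPM at 8 h and 404 RPM at 13 h, Stat5b at 300 and 440 RPM, and IgG at 247 and 283 RPM. Stat5a was 2.01 times IgG at 8 h (1.87 to 2.15) and 1.43 times at 13 h (1.35 to 1.51). Over all merged regions these Stat5a ratios were 1.82 and 2.42. Stat5b was 1.22 times IgG at 8 h (1.14 to 1.30) and 1.55 times at 13 h (1.47 to 1.64), against 1.60 and 2.92 over all merged regions. Regions called higher than IgG numbered 21 for Stat5a at 8 h (11.2% of all merged regions were called), 10 at 13 h (13.9% of all), 1 for Stat5b at 8 h (2.92% of all) and 10 at 13 h (17.5% of all). No Stat5a read was found in 580 regions at 8 h and in 300 at 13 h, which allows up to 0.958 and 0.361 RPM per region. In 44 regions none of the 4 earlier ChIP libraries had a read.

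From 13 h to 2 rounds, Stat5a over the regions went up 5.72 times (5.51 to 5.94), and 468 regions (40.7%) were called higher, against 7.67% of all merged regions. From 8 h the ratio was 4.67 (4.43 to 4.92), and 79 regions (6.87%) were called higher, against 3.73% of all. On distinct starts these numbers were 83 and 1, with no share of all merged regions to set beside them. Both comparisons use the 2-round Stat5a library that chose the regions, and the smaller 8 h library leaves wider intervals. Stat5b over the same regions went up 1.88 times from 13 h to 2 rounds (1.81 to 1.96), with 52 regions called higher (4.52%, against 25.1% of all merged regions). From 8 h the Stat5b ratio was 2.75 (2.62 to 2.90), with 64 called (5.57%, against 43.4% of all). On distinct starts 4 regions were called over 13 h and 11 over 8 h. In regions with both peaks the Stat5b ratio was 6.14 over 13 h (6.06 to 6.22) and 11.3 over 8 h (11.1 to 11.5). Absence of a 2-round Stat5b peak was part of the choice of the Stat5a-alone regions, so a smaller Stat5b rise was favoured in them. IgG stood at 0.945 times its 13 h level (0.885 to 1.01), and at 0.906 times on distinct starts (0.835 to 0.984).

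Among the members, the ratio of Stat5b to Stat5a was similar across levels of Stat5a. Stat5a reads gave both the order of the regions and the denominator of the ratio. The rule also left out regions with a Stat5b peak, so the values are a description and not a test. In 4 parts of near equal size, ordered by Stat5a reads, from highest to lowest, Stat5a stood at 9.63, 7.86, 6.41 and 4.63 RPM per kb. Stat5b stood at 3.44, 2.83, 2.24 and 1.69 RPM per kb, which gives ratios of 0.357, 0.361, 0.349 and 0.366 with overlapping intervals (lowest bound 0.327, highest 0.395). IgG went from 1.32 in the highest part to 0.539 RPM per kb in the lowest. The highest part was also the widest, with a median of 323.5 bp against 249 bp in the lowest.

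Many of the regions lay close to other Stat5 peaks. The median gap to the nearest peak of another list was 7.17 kb. It was under 100 bp in 59 regions, under 1 kb in 217 (18.9%) and under 10 kb in 672 (58.4%), while 83 regions lay 100 kb or more from any. The nearest other region with a 2-round Stat5b peak was under 10 kb away for 53.0% of them. The same share was 60.4% for regions with both peaks, 58.4% for regions with a Stat5b peak alone and 36.5% for the 6339 regions with a Stat5a peak at 13 h and no other peak. Gaps depend on the length of each list, and no test was made of these shares.

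The regions far from any other peak had the least Stat5b. By gap, Stat5b stood at 2.81 RPM per kb under 1 kb, 2.83 from 1 to 10 kb, 2.51 from 10 to 100 kb and 1.40 at 100 kb or more, so the first 3 classes lay close together. Regions under 1 kb from another peak had 7.39 RPM per kb of Stat5a and 2.81 of Stat5b, a ratio of Stat5b to Stat5a of 0.380 (0.356 to 0.406). The 83 isolated regions had 6.46 and 1.40 RPM per kb, a ratio of 0.217 (0.186 to 0.252). At 8 h they had 0.893 RPM per kb of Stat5a against 1.78 in the near regions, and IgG there stood at 1.26 and 0.804. The isolated regions thus had less Stat5b relative to Stat5a after 2 rounds, the intervals of the ratio not overlapping. The gaps were measured to the deposited peaks, those of Stat5b after 2 rounds included. The classes are therefore not independent of Stat5b, and the values are a description and not a test. At 13 h the isolated regions also had less Stat5a (0.708 against 1.32 RPM per kb in the near regions) and less Stat5b (1.05 against 1.54). At 8 h their Stat5a was below their IgG, with no interval computed for that comparison. Among them, the heaped region chr3:46601800-46601977 alone held 29 IgG and 5 Stat5a reads at 8 h.

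The regions rarely adjoined one another. Joining those less than 10 kb apart left 1080 single regions and 35 pairs, with no larger group. The first pair in genome order, on chr1:59189425-59191031, held 4.36 RPM of Stat5a, 1.70 of Stat5b and 0.346 of IgG after 2 rounds.

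The share of 2-round regions with a Stat5a peak alone was larger on chromosome X than on any autosome, chromosome Y with its 1 region left aside. There 35 of 409 regions with 2-round peaks only (8.56%, Wilson interval 6.22 to 11.7) had Stat5a alone, and the autosomes ranged from 3.89% on chromosome 17 to 6.91% on chromosome 3 (5.56 to 8.56), an interval that overlaps that of X. Chromosome X held 3.04% of the Stat5a-alone regions, 1.62% of the regions with both peaks and 1.94% of those with Stat5b alone. It held 4.85% of Stat5a, 3.74% of Stat5b and 4.95% of IgG reads after 2 rounds, so every kind was scarcer on X than reads were. After 2 rounds the Stat5a-alone regions of X stood at 7.09 RPM per kb of Stat5a, 2.17 of Stat5b and 0.340 of IgG, and those of all other chromosomes at 7.33, 2.63 and 0.862. Stat5b was 0.306 times Stat5a on X (0.253 to 0.369) and 0.359 times elsewhere (0.349 to 0.370), with overlapping intervals.

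**Figure D4:**
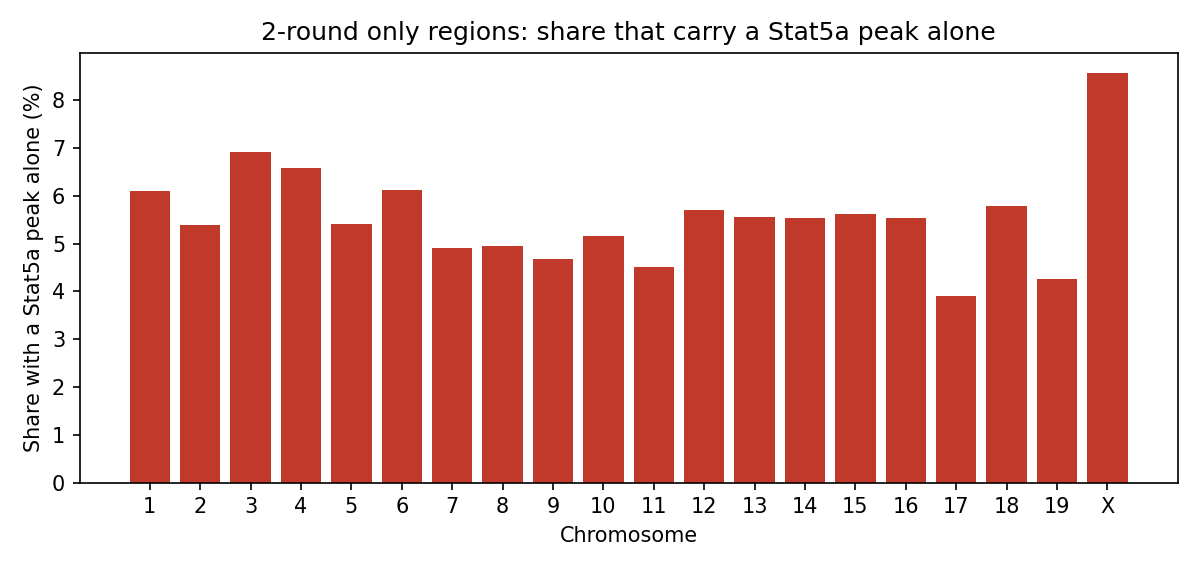
Share (%) of regions with 2-round peaks only that carried a Stat5a peak alone, by chromosome; chromosome Y, with 1 region in all, is left out. Chromosome X stands highest at 8.56%, and the autosomes lie between 3.89% and 6.91%.

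The only peak on chromosome Y in any of the 6 lists was a Stat5a-alone region, chrY:244053-244315. It held 6 Stat5a reads after 2 rounds, 0 Stat5b and 1 IgG read. The region was picked out after its values were seen.

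The 10 regions with the most Stat5a above IgG after 2 rounds had between 31 and 38 Stat5a reads (4.66 to 5.72 RPM) from 10 to 17 distinct starts. Their Stat5b counts spread from 2 to 18 reads, and IgG from 0 to 4. The region ranked highest, chr1:36908330-36908637, had 5.27 RPM of Stat5a (35 reads), 0.914 of Stat5b (7 reads) and no IgG read. With IgG set at the floor of 3 counts, Stat5a was at least 10.2-fold higher than IgG as a point value, and the 95% interval of the ratio to the IgG count of 0 began at 7.84. At 8 h and 13 h this region had 0.639 and 0.481 RPM of Stat5a and 0.291 and 0.443 RPM of Stat5b. A peak of another list lay 885 bp away.

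The region chr4:102149716-102150138 showed the least Stat5b of the 10. After 2 rounds it had 4.82 RPM of Stat5a (32 reads), 0.261 of Stat5b (2 reads) and 0.173 of IgG (1 read). Its Stat5a at 8 h and 13 h was 0.319 and 0.241 RPM. The ratio of Stat5a to Stat5b was 18.4 (4.70 to 159), and reads were of both lengths, 14 of 24 bp and 18 of 25 bp.

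On chr5:32330561-32330960, the region with the most Stat5a reads of the 10, Stat5a stood at 5.72 RPM (38 reads), Stat5b at 0.392 (3 reads) and IgG at 0.518 (3 reads). Stat5a was 14.6 times Stat5b (4.63 to 73.9). Of its 38 reads, 35 were 25 bp long and 11 shared 1 start. IgG at 13 h, 1.73 RPM, was above Stat5a of that stage, 0.963 RPM. The 25 bp reads also made up 32 of 34 on chr5:136827812-136828219, 31 of 34 on chr19:36429900-36430247 and 31 of 35 on chr3:133254591-133254969, so the Stat5a level of these 4 regions rests mainly on 1 read length.

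On chr10:98209531-98210023 Stat5b was higher, at 2.22 RPM (17 reads), beside 4.97 of Stat5a (33 reads) and no IgG read. The ratio of Stat5a to Stat5b was 2.24 (1.21 to 4.28). Of the 10 regions, 3 had an interval of this ratio wholly above 2, those on chr1, chr4 and chr5:32330561-32330960. The other 7 had lower bounds between 1.20 and 1.95.

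**Figure D5:**
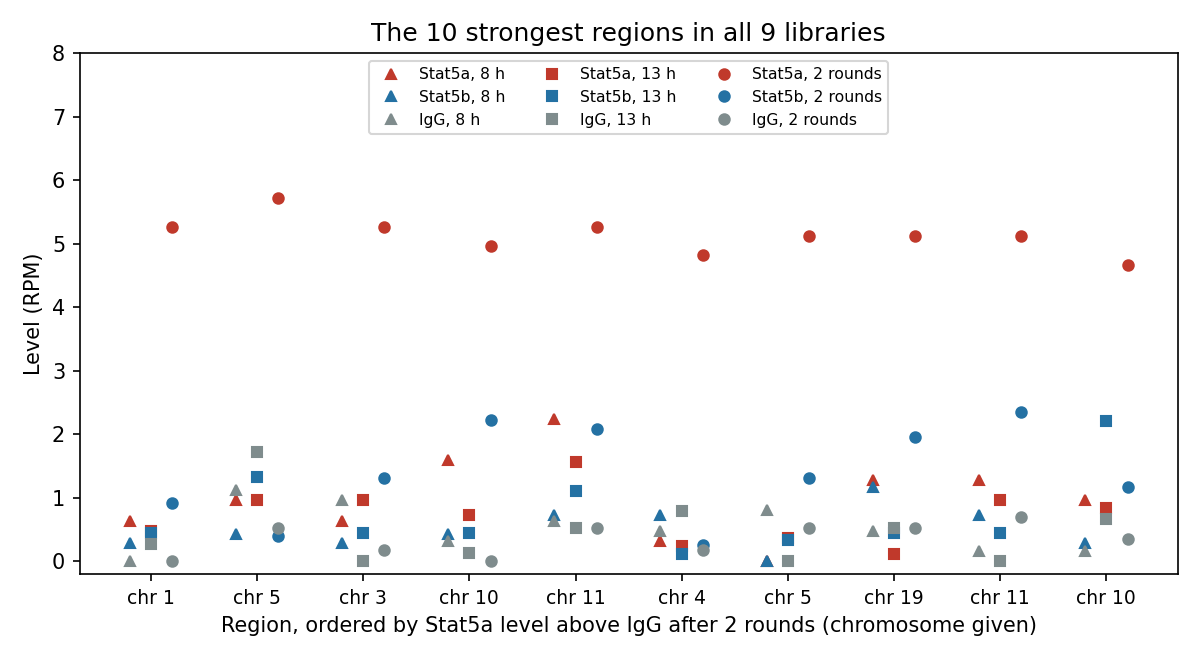
Level (RPM) of the 10 Stat5a-alone regions with the most Stat5a above IgG after 2 rounds in each of the 9 libraries, on a linear axis (triangles 8 h, squares 13 h, circles 2 rounds). Stat5a after 2 rounds lies between 4.66 and 5.72 RPM in every one, and no other library passes 2.35 RPM.

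At the other end, Stat5b was as high as Stat5a in several regions in spite of the missing peak. On chr7:125984245-125984704 Stat5b stood at 3.66 RPM (28 reads), the most of all Stat5a-alone regions, and Stat5a at 3.61 (24 reads), against 0.346 of IgG (2 reads). The ratio of Stat5a to Stat5b was 0.988 (0.548 to 1.77). On chr1:82748432-82748816 there were 26 reads of each factor and 1 of IgG. Stat5b also reached 2.87 RPM on chr7:122911788-122912070, where Stat5a had 1.96, and 3.13 on chr14:39914015-39914439, where Stat5a had 3.01. In none of these 4 regions did the interval of the ratio of Stat5a to Stat5b exclude 1.

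Among the 5 widest regions, 2 held more than 1.5 RPM of Stat5a at both earlier stages. On chr9:66383942-66384499 the RPM of Stat5a was 1.92 at 8 h, 2.53 at 13 h and 4.06 after 2 rounds. In the same order Stat5b had 0.874, 2.99 and 0.914 RPM, and IgG had 0.641, 1.46 and 0.864. Stat5a after 2 rounds was 1.61 times its 13 h level (0.876 to 2.99), and Stat5b was highest at 13 h, when no peak was listed. The widest region of all, chr2:18581584-18582225 with 642 bp, had 2.88, 1.80 and 4.67 RPM of Stat5a and 2.35 RPM of Stat5b after 2 rounds. The other 3 had less Stat5a early on. It stood at 0.319 RPM at 8 h and 0.361 RPM at 13 h on both chr4:63431450-63431998 and chr7:140208587-140209105, and at 1.28 and 0.120 RPM on chr12:55978308-55978838.

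The 5 regions with the most IgG after 2 rounds had intervals of the ratio of Stat5a to IgG that held 1. The region with the most Stat5a reads of all 1150, chr2:163300626-163300794, had 113 Stat5a reads (17.0 RPM) and 88 IgG reads (15.2 RPM) after 2 rounds, beside 9 of Stat5b. Of the Stat5a reads, 96 shared 1 start and 109 were 24 bp long. Its ratio of Stat5a to IgG was 1.12 (0.839 to 1.49). On chr16:10888635-10888903 Stat5a had 25 reads and IgG 24, and 18 of the 19 distinct Stat5a starts were on the minus strand. The regions chr18:74497154-74497362 and chr6:43273316-43273486 had 24 and 21 Stat5a reads against 21 and 16 of IgG. In these 4 regions IgG was above Stat5b at 13 h too. On chr4:97352396-97352803 the ratio was 1.74 (0.838 to 3.82). Over all 1150 regions, IgG RPM passed Stat5a RPM after 2 rounds in 2, against 8652 of all 43766 merged regions.

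Some regions lay right at the limit of the overlap rule. The regions chr1:52411172-52411377, chr12:87723731-87723901 and chr17:35313789-35314041 each touched a peak of another list without sharing a base. Their Stat5a levels after 2 rounds were 2.56, 2.26 and 1.35 RPM, and their Stat5b levels 0.914, 0.261 and 0.522. On the other side of the limit, the regions chr2:104563926-104564679, chr6:127236915-127237588 and chr10:7745399-7746265 joined a 2-round Stat5a peak to another peak by 2 bp. Over their full width they had 3.31, 2.71 and 4.21 RPM of Stat5a and 4.44, 4.31 and 3.66 of Stat5b.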

How the data were processed

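The deposited read lists hold the start and end of each mapped read in bp of mm8, and the deposited peak lists the start and end of each peak, per the file headers and names with no height or score (other values). What aligned the reads, what called the peaks, at which threshold and with or without IgG is not given in the sources used here. Each read was counted in a region by its 5' end, those of 24 bp after a move of 1 bp upstream, and counts were divided by the library total. Ratios carry exact conditional (Clopper-Pearson) intervals and shares Wilson intervals, at 95%. The floor for a count of 0 was 3 counts. The calling rule and the offset were tested on simulated data. Repeated starts were not modelled. The regions raised or lowered there had more counts than most Stat5a-alone regions hold in IgG or in Stat5a at 13 h. The simulated offset used more starts per strand than any Stat5a-alone region held. Finding of true changes against those libraries, and the offset, were thus not tested at the depth of these regions. Named regions are the 10 with the most Stat5a and the 5 with the most Stat5b above IgG after 2 rounds, the 5 widest, the 5 with the most IgG, groups under 10 kb and the 3 regions on either side of the overlap limit; the text describes examples. Regions, comparisons and rules were chosen with earlier results of these data known. Alternatives counted each start once, 25 bp reads alone, other scaling, reads moved 75 bp, regions without heaps and regions 1 kb or more from other peaks. Reads of 24 bp alone were added after the data were seen. A planned gene list was not used because no mm8 annotation was used here. Scripts ran in Python 3.11.15 with scipy 1.17.1, numpy 2.4.6 and pandas 2.3.3, and figures were drawn with matplotlib 3.10.9.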

Additional observations from a re-analysis of the deposited data

Results flagged for a closer look

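Over the Stat5a-alone regions, the order of the factors changed with the stage, with no test of the change. Stat5b stood at 0.606 times Stat5a at 8 h (0.567 to 0.648), at 1.09 times at 13 h (1.04 to 1.14) and at 0.358 times after 2 rounds (0.347 to 0.368). On distinct starts the ratios were 0.677, 1.10 and 0.388. The regions with both 2-round peaks had 0.607 at 8 h and 1.13 at 13 h, close to the values of the Stat5a-alone regions. After 2 rounds, the stage whose peaks separate the kinds, they had 1.62. Over all merged regions the ratios were 0.879, 1.21 and 2.16, so the rise from 8 h to 13 h was not particular to the Stat5a-alone regions. Their low ratio after 2 rounds was favoured by the choice, which asked for a Stat5a peak and no Stat5b peak.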

How the results depend on the processing

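Of the alternative values, 29 stayed within the interval, the spread or 1.5 times of the value reported, 15 moved further, and none turned the direction. With each start counted once, regions called higher for Stat5a than IgG fell from 422 to 38, those called lower for Stat5b than Stat5a from 174 to 11, the ratio of Stat5a to its 13 h level was 5.36 and the ratio of Stat5b to IgG 3.34; distinct starts give fewer counts per region. With 25 bp reads alone, the ratio to IgG was 12.8 for Stat5a and 4.08 for Stat5b, 26 regions were called higher for Stat5a than IgG, and the ratio of Stat5a to its 8 h level was 5.24. With 24 bp reads alone, the ratio of Stat5a to IgG was 7.25 and 182 regions were called; the cause of the difference between the read lengths was not tested. Scaling by reads outside merged regions gave a ratio of Stat5b to IgG of 3.68. Without the 3 heaped regions the ratios to IgG were 9.15 for Stat5a and 3.30 for Stat5b. Reads moved 75 bp downstream gave 4.99 for Stat5a over its 8 h level. Requiring 50% of both peaks to call an overlap left 2856 Stat5a peaks without a partner in place of 1150, and counting peaks under 1 kb away as shared left 933 regions. No region had 10 distinct starts on each strand, so that alternative gave no offset, and with 25 bp reads alone only 2 regions gave one. No paired analysis was possible because each group has 1 library. Depth limits single regions: 12 Stat5a reads at the median.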
